A study of Mus musculus with 10 samples.

Results

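The TGF-beta and BMP genes described here are 53 genes of the pathway, taken from the deposited count table by their symbols, out of 56748 genes in all: 15 ligands, 5 matrix genes that bind or process ligands, 12 receptors and co-receptors, 6 signal-carrying SMADs, 7 extracellular antagonists, 4 inhibitors that act in or at the surface of the cell, and the 4 Id genes, which BMP signals induce. RNA-seq compared primary adipocytes from control mice (Fam20c-flox, without Cre) and from KO mice (Fam20c-flox/Adipoq-Cre), in which the Cre recombinase is driven by the adiponectin promoter, so that Fam20c, a secretory pathway kinase, is deleted once cells turn on adiponectin and not in the other cells of the culture. Both groups were the stromal vascular fraction of inguinal fat from male mice of 6 to 8 weeks, and both received the adipogenic mix of insulin, dexamethasone, 3-isobutyl-1-methylxanthine and rosiglitazone. There were 5 control and 5 KO libraries, and the sources used here do not say whether each came from its own mouse, so the spread between libraries may be technical.

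TGF-beta ligands are secreted in a latent form, held in the matrix by LTBP proteins, and signal through TGFBR2 and TGFBR1 to SMAD2 and SMAD3. BMP ligands signal through BMPR2 or activin type II receptors and the type I receptors ALK2 (Acvr1), ALK3 (Bmpr1a) and ALK6 (Bmpr1b), or in endothelial cells ALK1 (Acvrl1), to SMAD1, SMAD5 and SMAD9, and both branches share SMAD4. In fat, TGF-beta holds back the differentiation of preadipocytes, whereas BMP signals favour their commitment to the adipocyte lineage.

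Library totals ran from 18949106 to 26237825 counts, and no 2 libraries of a group were alike within sampling noise (lowest chi-square over its degrees of freedom 3.50). Fam20c itself was lower in the KO libraries, at 10.2 ± 1.29 CPM (counts scaled to library size; SD, n = 5) in control against 7.30 ± 0.449 CPM in KO, or -0.49 on the log2 scale (adjusted p = 0.0137, edgeR). The 12 adipocyte markers summed to 37500 to 38700 CPM in control against 39000 to 41200 CPM in KO. Every KO library lay above every control library (2-sided exact permutation test, p = 0.00794, 0.0318 adjusted over 8 marker lists). None of the 12 passed an adjusted p under 0.05 alone (edgeR), and 9 had positive and 3 negative log2 fold changes. Fabp4 was the largest part of the sum, at a mean of 20810 CPM in control against 22550 CPM in KO. Lpl, the next largest, averaged 8630 CPM in control against 8479 CPM in KO. As a mean of log2 CPM, which gives each gene equal weight, the list did not pass. The label names adipocytes, but the cultures also held other cells. The 20 endothelial markers summed to 208 to 257 CPM in control against 90.9 to 132 CPM in KO (2-sided exact permutation test, p = 0.00794, 0.0318 adjusted over 8 marker lists), with 16 of the 20 lower at an adjusted p under 0.05 and 0 higher. The 10 fibroblast and preadipocyte markers summed to 4040 to 5100 CPM in control against 3350 to 4120 CPM in KO (2-sided exact permutation test, p = 0.0159, 0.0424 adjusted over the lists), with 3 lower and 0 higher. Macrophage markers, at 1370 to 2130 CPM in control against 1210 to 2010 CPM in KO, overlapped between the groups, and the 5 epithelial markers summed to at most 0.351 CPM in any library. Control library 4 and KO library 1 lay far from the other 8 libraries on principal component 1, with 23.5% of the variance of all tested genes, and values without them are given for the members they set apart.

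**Figure D1:**
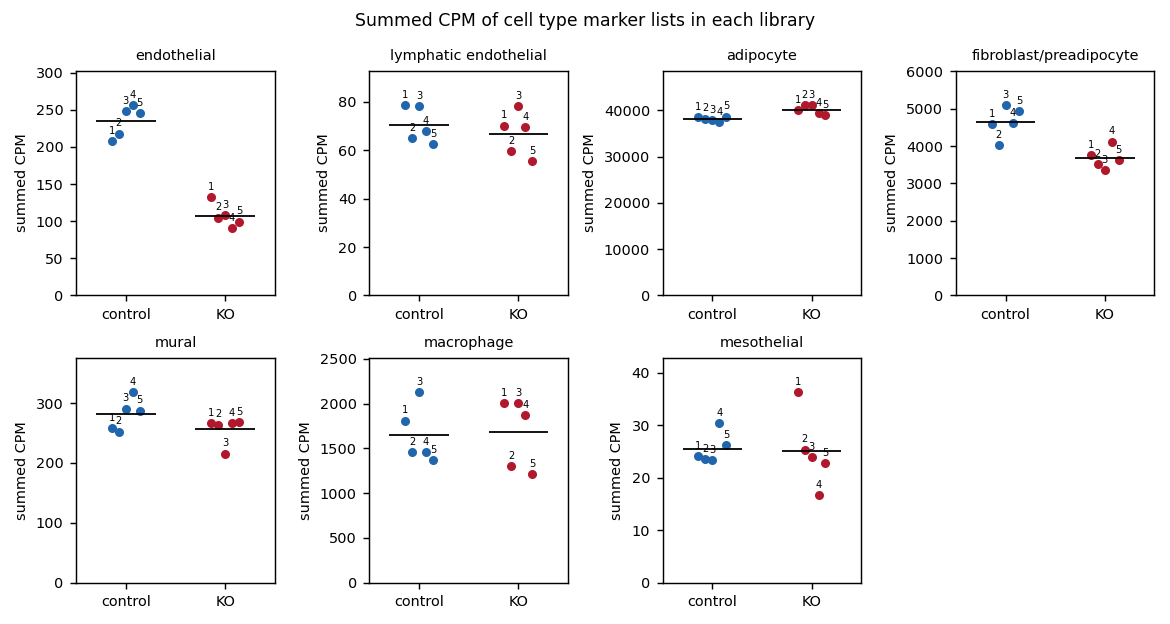
Summed CPM (vertical axis, from 0) of the markers of 7 cell types in each control (blue) and KO (red) library, numbered by replicate, with a line at the mean of 5 libraries. The endothelial sum is 208 to 257 CPM in control against 90.9 to 132 CPM in KO, and the macrophage sums overlap.

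Of the 53 genes, 48 had enough counts to be tested with the 14270 genes of the table that passed the filter. At an adjusted p under 0.05 (edgeR's quasi-likelihood test), 1 of the 48 was lower in KO, Eng, where 1.86% of all tested genes were, and 0 were higher, where 0.308% of all were (2.17% in either direction). At an unadjusted p under 0.05, 18 of the 48 differed, or 37.5%, against 11.9% of all tested genes, with 16 lower (7.46% of all genes) and 2 higher (4.43% of all genes). Every KO library lay below every control library for 3 members, Eng, Tgfbr2 and Id2, against 2.66% of all tested genes, and above every control library for 0, against 1.31%. The median log2 fold change of the 48 was -0.05, and that of all tested genes was 0.00. DESeq2, the tool of the study's methods, was run here on all 5 control and 5 KO libraries. It called 5 of the 48, with Tgfbr2, Inhbb and Fst lower besides Eng and Grem1 higher, where it called 2.52% of all tested genes lower and 0.876% higher. These are not the study's own calls, for which its figure gives fewer samples per group. Without control library 4 and KO library 1 edgeR called 7, with Eng, Tgfbr2, Acvrl1, Fst, Bambi and Id2 lower and Grem1 higher, while calls over all genes also became more frequent, at 2.46% lower and 1.01% higher of 14340. With the mean of the endothelial markers as a covariate, which itself differs between the groups, 0 of the 48 and 0 of all tested genes were called, while 8 of the 48 and 2174 of all tested genes had an unadjusted p under 0.05.

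**Figure D2:**
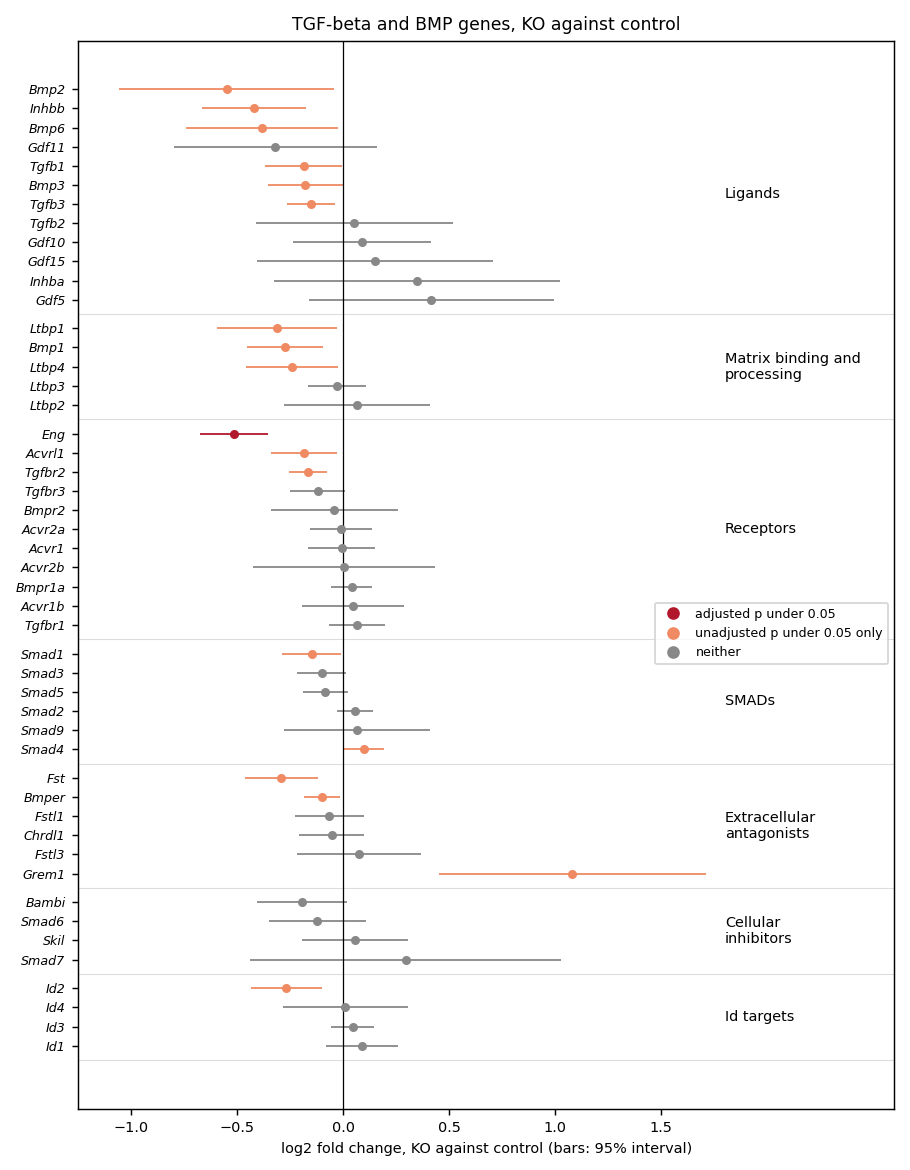
Log2 fold change of KO against control (horizontal axis) for the 48 tested genes by role, with 95% intervals from the edgeR fit. Eng, in dark red, is the gene that passed the adjusted limit, at -0.51, and Grem1, at 1.08, has the largest value but a wide interval.

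The members whose libraries set them apart are shown by the 250 bases before their start sites, from RefSeq on GRCm38.p6. Eng, Tgfbr2 and Id2 are the 3 whose KO libraries all lay below the control libraries, and Grem1 had the largest log2 fold change. Capitals mark the SMAD1 and SMAD5 binding core GGCGCC, searched on both strands (it is its own reverse complement). The SMAD3 binding sequence CAGACA was searched on both strands as well and was in none of the 4. Shorter forms of CAGACA were not searched. Each sequence reads 5′ to 3′ along its gene.

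Eng, chr2:32646345-32646594, plus strand: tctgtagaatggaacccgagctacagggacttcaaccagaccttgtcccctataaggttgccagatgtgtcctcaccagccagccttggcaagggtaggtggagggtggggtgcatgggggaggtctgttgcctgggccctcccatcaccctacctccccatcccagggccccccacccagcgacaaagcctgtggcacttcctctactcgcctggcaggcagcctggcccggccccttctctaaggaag

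Tgfbr2, chr9:116175364-116175613, minus strand: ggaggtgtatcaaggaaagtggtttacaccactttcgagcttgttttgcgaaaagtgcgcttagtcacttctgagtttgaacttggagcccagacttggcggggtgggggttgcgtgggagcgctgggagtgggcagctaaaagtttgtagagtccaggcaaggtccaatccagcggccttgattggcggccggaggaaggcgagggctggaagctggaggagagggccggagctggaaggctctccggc

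Id2, chr12:25096093-25096342, minus strand: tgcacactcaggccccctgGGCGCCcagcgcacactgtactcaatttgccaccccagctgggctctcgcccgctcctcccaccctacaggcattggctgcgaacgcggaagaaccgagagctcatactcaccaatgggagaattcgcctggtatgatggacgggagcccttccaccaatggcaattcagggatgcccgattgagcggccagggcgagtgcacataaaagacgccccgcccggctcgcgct

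Grem1, chr2:113758649-113758898, minus strand: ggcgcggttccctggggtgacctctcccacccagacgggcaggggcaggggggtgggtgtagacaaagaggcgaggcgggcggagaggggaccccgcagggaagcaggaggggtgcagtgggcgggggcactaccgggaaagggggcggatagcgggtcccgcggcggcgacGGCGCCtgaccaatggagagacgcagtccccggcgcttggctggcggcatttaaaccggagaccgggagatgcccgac

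GGCGCC begins 231 bases before the start site of Id2 and 78 bases before that of Grem1. The Eng and Tgfbr2 windows hold neither GGCGCC nor the full CAGACA. The promoter table held 36 of the 53 genes, with 45 windows. GGCGCC was in 10 of the 45 windows, and in 9.59% of all 32851 windows of the same length. The 10 belong to 9 genes (Bmpr1a, Bmpr2, Grem1, Id2, Id4, Ltbp4, Smad5, Smad9 and Tgfbr1). CAGACA was in 6 of the 45 windows, those of 6 genes (Bmp5, Bmpr1b, Fstl3, Ltbp1, Tgfb2 and Tgfbr1), and in 17.1% of all windows. The members' windows were richer in G and C, with a median of 66.4% against 52.4%, and a match or its absence says nothing about whether a SMAD binds there.

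Eng (endoglin, ENSMUSG00000026814) is the co-receptor that presents TGF-beta and BMP ligands to the type I receptor ALK1, and is best known from endothelial cells. The gene spans chromosome 2 from 32646595 to 32682669 (GRCm38, plus strand). Eng had 22.4, 24.6, 24.9, 19.4 and 25.4 CPM across control libraries 1 to 5, against 17.1, 15.5, 16.8, 16.1 and 16.4 CPM across KO libraries 1 to 5. The highest KO library was below the lowest control library, control 4, and the KO libraries lay close together. Its mean fell, with 23.3 ± 2.47 CPM in control against 16.4 ± 0.640 CPM in KO (SD, n = 5). The change was -0.51 ± 0.0738 on the log2 scale (standard error; adjusted p = 0.00211, edgeR), and Eng ranked 80 by p-value among the 14270 genes. The exact permutation test, 2-sided, gave p = 0.00794, the smallest that 5 libraries against 5 allow. With any 1 library left out, this change stayed between -0.57 and -0.48 and the adjusted p at 0.0121 or lower (edgeR), and without both control library 4 and KO library 1 it was -0.59. Beside Eng, the 20 endothelial markers had log2 fold changes from -1.84 to -0.19 with a median of -1.23, among them Cdh5 at -1.27, Robo4 at -1.65, Egfl7 at -1.24, Emcn at -1.29 and Tie1 at -1.35. With their mean as a covariate the log2 fold change of Eng was -0.48 (adjusted p = 0.487, edgeR), with a standard error of 0.297. In cultures sequenced whole, fewer cells of a type and less RNA per cell cannot be told apart. Exons of Eng overlap those of Fpgs on the opposite strand, and the strand setting of the counting is not given in the sources used here.

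Tgfbr2, the type II receptor that binds TGF-beta, had 370, 363, 359, 365 and 388 CPM across control libraries 1 to 5, against 356, 319, 321, 329 and 319 CPM across KO libraries 1 to 5. All KO libraries lay below the control libraries, with KO 1 nearest to them. The means were 369.1 ± 11.5 and 328.9 ± 15.6 CPM (SD, n = 5). The difference of -0.17 on the log2 scale (95% interval -0.26 to -0.08) missed the limit (adjusted p = 0.0623, edgeR). It passed with DESeq2 (adjusted p = 0.0101), with limma voom (adjusted p = 0.0154) and, in edgeR, without KO library 1 (adjusted p = 0.0199). The other fits that left out 1 library missed the limit, with adjusted p-values up to 0.192 (edgeR). Acvrl1, which encodes ALK1, the partner of endoglin, had 32.5 to 37.4 CPM in control libraries and 27.9 to 30.4 CPM in KO libraries 2 to 5, while KO library 1 reached 36.8 CPM. Its log2 fold change was -0.18 (adjusted p = 0.304, edgeR), and without KO library 1 it was -0.25 and passed (adjusted p = 0.0307, edgeR). With any other library left out Acvrl1 missed the limit, with adjusted p-values up to 0.562 (edgeR). Exons of Acvrl1 overlap Gm16031 on the opposite strand. Tgfbr3 (betaglycan), which presents TGF-beta2 to its receptors, averaged 198.8 ± 11.2 CPM in control against 183.0 ± 15.1 CPM in KO (SD, n = 5), with an interval of -0.25 to 0.01 around its log2 fold change of -0.12.

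The remaining 7 tested receptors had log2 fold changes between -0.04 and 0.07. They are the type I receptors Tgfbr1 (0.07), Bmpr1a (0.04), Acvr1 (-0.01) and Acvr1b (0.05), and the type II receptors Bmpr2 (-0.04), Acvr2a (-0.01) and Acvr2b (0.00). The 95% interval was narrow for Bmpr1a (-0.06 to 0.14) and Tgfbr1 (-0.07 to 0.20), and wide for Bmpr2 (-0.34 to 0.26) and Acvr2b (-0.43 to 0.43). Bmpr2 varied within the groups, from 45.0 to 79.7 CPM in control and from 47.2 to 71.7 CPM in KO libraries. Bmpr1b, which encodes ALK6, was too low to test, at 1 to 7 counts per library.

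Compared per length, as CPM per kilobase of exon averaged over the control libraries, the receptors were led by Tgfbr2 at 45.1, Tgfbr3 at 30.4 and Bmpr1a at 19.9. Acvrl1 stood at 8.21, Acvr2a at 6.86, Tgfbr1 at 6.37 and Eng at 5.77. In KO the same measure for Eng was 4.05. Among the type II receptors, Bmpr2 was at 3.51 and Acvr2b at 0.386. The tested ligands ranged from 6.86 for Gdf10 to 0.231 for Bmp2. Of all tested members, Fstl1 had the highest level per kilobase, at 82.1 in control and 78.5 in KO, followed in control by Tgfbr2 and by Id3 at 41.0.

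**Figure D3:**
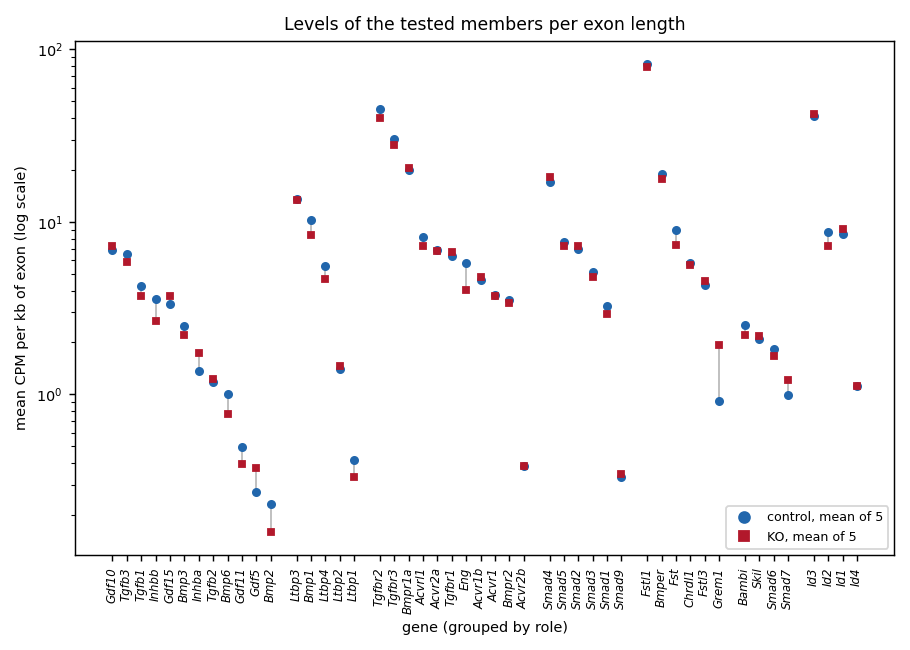
Mean CPM per kilobase of exon (vertical axis, log scale) of the 48 tested genes in control (blue circles) and KO (red squares), each a mean of 5 libraries, grouped by role and ordered by the control level. Fstl1, Tgfbr2 and Id3 are highest in control, and the widest gap between the groups is that of Grem1, at 0.921 in control and 1.94 in KO.

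Among the ligands, 12 of 15 could be tested, 0 passed the adjusted limit, and 6 had an unadjusted p under 0.05, all lower in KO, where 7.46% of all tested genes were. Inhbb encodes the subunit of activin B, a product of adipocytes. It had 12.1, 13.3, 14.9, 18.3 and 16.9 CPM across control libraries 1 to 5, against 12.3, 10.8, 12.4, 9.67 and 11.1 CPM across KO libraries 1 to 5. Control library 1 fell within the range of the KO libraries, and the other control libraries lay above it. The means of 15.1 ± 2.52 and 11.3 ± 1.14 CPM (SD, n = 5) differed by -0.42 on the log2 scale (adjusted p = 0.0923, edgeR). Inhbb passed with DESeq2 (adjusted p = 0.0243), in edgeR without the filter on low counts (adjusted p = 0.0452) and without control library 1 in edgeR (adjusted p = 0.0447, log2 fold change -0.49).

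None of the 3 TGF-beta ligands passed the limit. Tgfb1 had 19.7 to 23.6 CPM in control libraries and 16.7 to 18.6 CPM in KO libraries 2 to 5, with KO library 1 at 22.6 CPM, and a log2 fold change of -0.19 (adjusted p = 0.399, edgeR). Tgfb3 had 20.6 to 23.3 CPM in control against 19.1 to 21 CPM in KO, a log2 fold change of -0.15 (adjusted p = 0.23, edgeR). Tgfb2 had 5.03 to 10.7 CPM in control against 5.27 to 9.87 CPM in KO, a log2 fold change of 0.05 with an interval from -0.41 to 0.52. For all 3 ligands the ranges of the groups overlapped. Exons of Tgfb3 overlap Gm37804 and Gm48008, and those of Tgfb2 overlap Gm29491, on the opposite strand.

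Of the 6 BMP ligands among the members, Bmp3, an atypical BMP that antagonizes the others, was the highest per length, at 2.50 CPM per kilobase in control, and had 16.6 to 20.4 CPM in control against 14.1 to 18.3 CPM in KO (log2 fold change -0.18, adjusted p = 0.409, edgeR). Bmp6 had 2.77 to 4.64 CPM in control against 2.15 to 3.77 CPM in KO (log2 fold change -0.38, adjusted p = 0.371, edgeR). Bmp2 rested on 7 to 25 counts per library, at 0.682 to 0.937 CPM in control against 0.307 to 0.814 CPM in KO (log2 fold change -0.55, adjusted p = 0.364, edgeR). Bmp4, which commits preadipocytes, was too low to test, at 1 to 12 counts per library, as were Bmp5 (0 or 1) and Bmp7 (1 to 6), so changes in these 3 were not detectable at this depth. Exons of Bmp6 overlap Txndc5 on the opposite strand.

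The other ligands were Gdf10 (log2 fold change 0.09), Gdf5 (0.42), Gdf11 (-0.32), the stress cytokine gene Gdf15 (0.15) and the activin A subunit gene Inhba (0.35), each with a 95% interval that includes 0. Inhba had 5.77, 5.25, 6.02, 17.5 and 8.88 CPM across control libraries 1 to 5, against 15.1, 11.5, 6.72, 11.6 and 10.2 CPM across KO libraries 1 to 5. Control library 4 was the highest of all, and KO library 1 was next. Without these 2 libraries the log2 fold change of Inhba was 0.63 (adjusted p = 0.112, edgeR).

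None of the 5 genes that hold ligands in the matrix or process them passed the adjusted limit, and 3 had an unadjusted p under 0.05, all with lower values in KO (7.46% of all tested genes). Bmp1, the procollagen C-proteinase, which also cleaves BMP antagonists and latent complexes, had 88.7, 79.9, 110, 92.8 and 80.2 CPM across control libraries 1 to 5, against 83.2, 70.9, 73.3, 73.8 and 72.8 CPM across KO libraries 1 to 5. Only KO library 1 lay within the control range, and the log2 fold change was -0.27 (adjusted p = 0.146, edgeR). Ltbp1 had 3.95 to 5.17 CPM in control against 2.85 to 4.08 CPM in KO, a log2 fold change of -0.31 (adjusted p = 0.349, edgeR). Ltbp4 had 32.6 to 39.7 CPM in control against 24.0 to 37.0 CPM in KO, a log2 fold change of -0.24 (adjusted p = 0.342, edgeR). Ltbp2 (0.06) and Ltbp3, the highest of the family at 13.6 CPM per kilobase in control (-0.03, 95% interval -0.17 to 0.11), were near 0. Beside these matrix genes, the summed fibroblast and preadipocyte markers had a log2 ratio of KO over control of -0.34; their part in these values was not tested.

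The extracellular antagonists included the largest difference among the members. Grem1 (gremlin 1), which binds BMP2 and BMP4 and keeps them from their receptors, spans chromosome 2 from 113746164 to 113758646 (GRCm38, minus strand). Its level was 2.83, 2.62, 2.40, 7.74 and 3.51 CPM across control libraries 1 to 5, against 11.7, 7.95, 7.29, 6.83 and 6.46 CPM across KO libraries 1 to 5. Control library 4 lay among the KO libraries, and the other 4 control libraries lay below all of them. On average Grem1 had 3.82 ± 2.23 CPM in control against 8.04 ± 2.10 CPM in KO (SD, n = 5). With a log2 fold change of 1.08 (95% interval 0.45 to 1.71) it missed the limit (adjusted p = 0.0932, edgeR). Without control library 4 its log2 fold change was 1.5 (adjusted p = 0.000799, edgeR), and without control library 4 and KO library 1 it was 1.33 (adjusted p = 0.00014, edgeR). DESeq2 gave an adjusted p of 0.00811, limma voom with quality weights 0.0027, and edgeR without the filter on low counts 0.0127. The other single libraries left out in turn did not bring it past the limit, with log2 fold changes down to 0.91 and adjusted p-values up to 0.214 (edgeR). With the endothelial covariate, which itself differs between the groups, its log2 fold change was 3.39 (adjusted p = 0.108, edgeR). The standard error was then 0.857, against 0.291 without the covariate. Grem1 rests on 51 to 235 counts per library.

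Fst (follistatin), which binds activins, had 43.3, 39.0, 47.8, 35.5 and 41.0 CPM across control libraries 1 to 5, against 31.7, 31.7, 36.0, 37.6 and 31.6 CPM across KO libraries 1 to 5. Control library 4 lay within the KO range. The log2 fold change was -0.29 (adjusted p = 0.101, edgeR), which passed without control library 4 (adjusted p = 0.0246, edgeR), with DESeq2 (adjusted p = 0.0397) and with limma voom (adjusted p = 0.0325). With any other library left out Fst missed the limit, with adjusted p-values up to 0.244 (edgeR). Exons of Fst overlap Gm47040 on the opposite strand.

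Bmper, a secreted modulator of BMP signals, had 87.2 to 95.4 CPM in control against 81.6 to 88.6 CPM in KO, a log2 fold change of -0.10 with an interval of -0.19 to -0.02 (adjusted p = 0.304, edgeR). Fstl1 (-0.07), Chrdl1 (-0.05) and Fstl3 (0.07) had 95% intervals that include 0. Nog (noggin), at 5 to 17 counts per library, was too low to test.

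**Figure D4:**
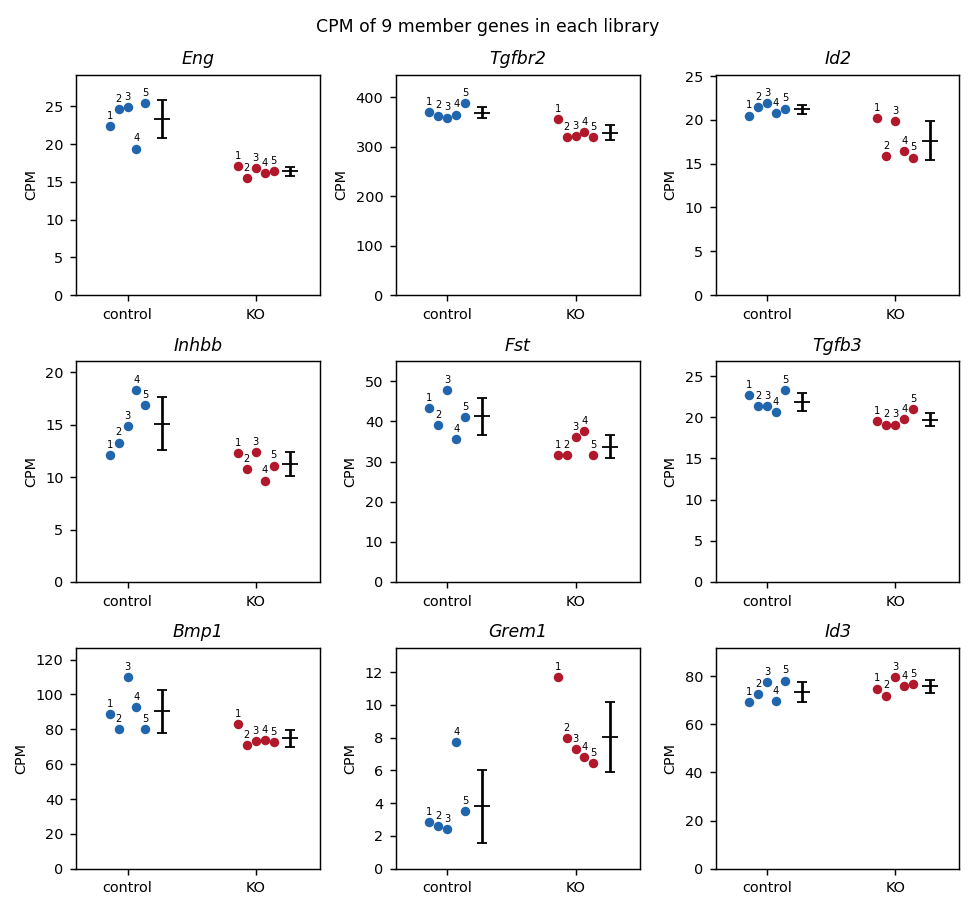
CPM (vertical axis, from 0) of 9 members in each control (blue) and KO (red) library, numbered by replicate, with the mean and SD of 5 libraries in black. The groups are apart for Eng, Tgfbr2 and Id2, control library 4 lies among the KO libraries for Grem1, and the groups overlap for Id3.

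The 6 SMADs had log2 fold changes between -0.15 and 0.10, and none passed the adjusted limit. The BMP effector Smad1 had 18.8 to 23.1 CPM in control against 16.9 to 19.5 CPM in KO, a log2 fold change of -0.15 (adjusted p = 0.375, edgeR). Smad4, the partner of both branches, had 58.5 to 67.9 CPM in control against 67.1 to 69.1 CPM in KO, a log2 fold change of 0.10 (adjusted p = 0.409, edgeR). The TGF-beta effectors Smad2 (0.06) and Smad3 (-0.10) and the BMP effectors Smad5 (-0.08) and Smad9 (0.07) had intervals that include 0, the narrowest being that of Smad2 (-0.03 to 0.14). Smad9 was the lowest, at 0.331 CPM per kilobase in control against 17.1 for Smad4.

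The targets and feedback inhibitors were read as transcripts, and the activity of the pathway itself was not measured. Id1 and Id3, which BMP signals induce through SMAD1 and SMAD5, had log2 fold changes near 0. Id1 had 8.71, 10.5, 9.88, 10.2 and 10.0 CPM across control libraries 1 to 5, against 10.5, 11.9, 10.6, 9.80 and 9.67 CPM across KO libraries 1 to 5, a log2 fold change of 0.09 (95% interval -0.08 to 0.26). Id3 had 69.1 to 78.1 CPM in control against 71.9 to 79.6 CPM in KO, a log2 fold change of 0.05 (95% interval -0.06 to 0.15). Both groups overlapped for each of these 2 genes, and Id4 was at 0.01 (95% interval -0.28 to 0.30).

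Among the Id genes, Id2 was the one whose KO libraries all lay below the control libraries. It had 20.5, 21.5, 21.9, 20.8 and 21.3 CPM across control libraries 1 to 5, against 20.2, 15.9, 19.9, 16.4 and 15.7 CPM across KO libraries 1 to 5. KO libraries 1 and 3 lay just under the control libraries, and the other 3 well under them. The log2 fold change was -0.27 (adjusted p = 0.122, edgeR), and it passed with limma voom (adjusted p = 0.0289) and without control library 4 and KO library 1 in edgeR (adjusted p = 0.0429). Id2 passed in 0 of the 10 fits that left out 1 library, with adjusted p-values up to 0.305 (edgeR), and missed with DESeq2 (adjusted p = 0.0619).

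Smad6, the feedback inhibitor of the BMP branch, had a log2 fold change of -0.12 (95% interval -0.35 to 0.11), and Bambi, a decoy receptor, one of -0.19 (adjusted p = 0.482, edgeR), which without control library 4 and KO library 1 was -0.32 and passed (adjusted p = 0.0411, edgeR). Skil, which encodes the SMAD repressor SnoN, was at 0.06 (95% interval -0.19 to 0.31). Smad7, the feedback inhibitor that TGF-beta induces, had 3.15, 3.04, 3.57, 8.75 and 3.85 CPM across control libraries 1 to 5, against 9.87, 5.71, 3.80, 3.76 and 4.22 CPM across KO libraries 1 to 5. Its high libraries were control 4 and KO 1, 1 in each group, and its log2 fold change of 0.29 had an interval from -0.44 to 1.03.

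That arrangement recurred. Control library 4 was the highest control library and KO library 1 the highest KO library for 14 of the 48 members, or 29.2%, against 14.8% of all tested genes. The 14 were Tgfb2, Bmp6, Inhba, Gdf15, Ltbp2, Ltbp4, Acvr1, Acvr1b, Acvrl1, Smad2, Grem1, Fstl3, Smad7 and Skil. Without both libraries Grem1 and Acvrl1 of these 14 passed the adjusted limit. Of the others, the log2 fold change was then 0.36 for Smad7, -0.41 for Bmp6, -0.28 for Ltbp4, 0.27 for Gdf15, 0.13 for Tgfb2 and Ltbp2, 0.10 for Acvr1b and Fstl3, 0.09 for Skil, 0.07 for Smad2 and 0.03 for Acvr1. Tgfb1 and Bmp1, for which KO library 1 alone was high among the KO libraries, were then at -0.24 (adjusted p = 0.102, edgeR) and -0.30 (adjusted p = 0.0926, edgeR). The 4 members that varied most within groups among all 48 were Smad7, Inhba, Grem1 and Gdf15, with SDs of log2 CPM within groups of 0.60, 0.58, 0.53 and 0.48, and the median over the 48 was 0.15. The labels give no date or batch that would mark these 2 libraries.

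**Figure D5:**
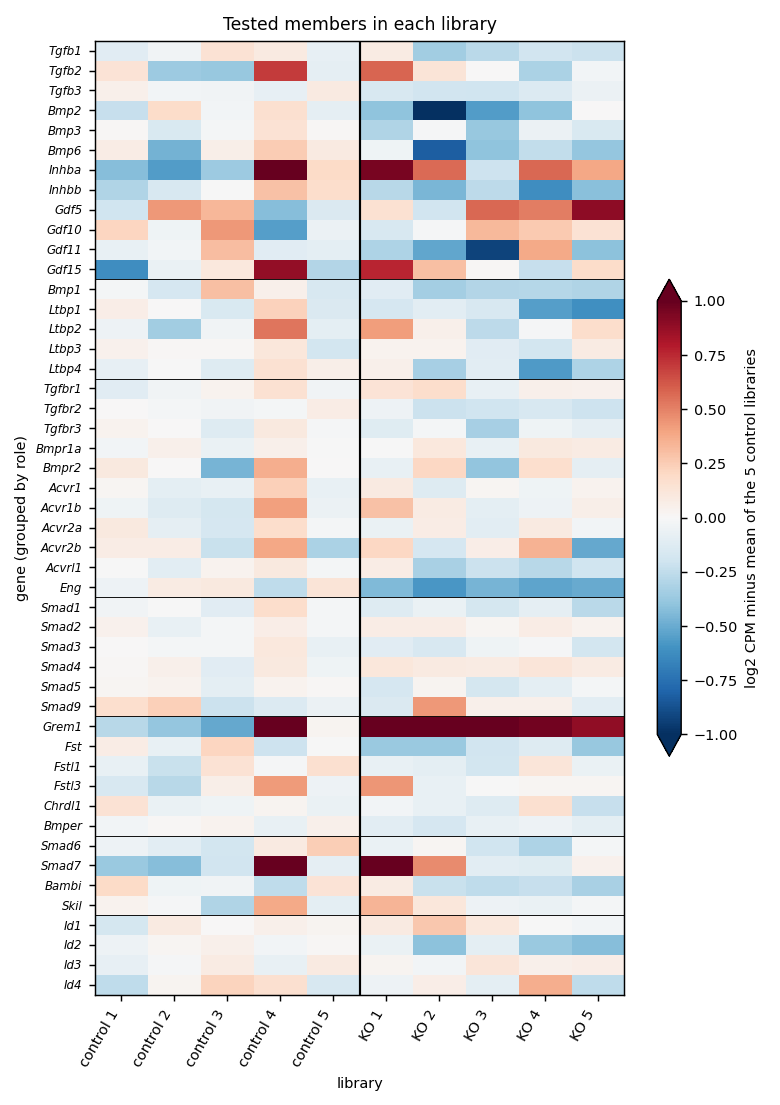
Log2 CPM of the 48 tested genes in each library, relative to the mean of the 5 control libraries (colour, limited to -1 and 1), with genes grouped by role. Eng is lower in all 5 KO libraries. Grem1 is higher in them, but control library 4 lies among the KO libraries and KO library 1 is highest. Inhba, Smad7 and Gdf15 are also high in both control library 4 and KO library 1.

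A further list of 94 genes of the pathway, outside the members, had 65 that could be tested. At an adjusted p under 0.05, 2 were lower in KO and 0 were higher, and at an unadjusted p under 0.05, 9 were lower and 2 higher. All tested genes had 1.86% lower and 0.308% higher at the adjusted limit and 11.9% at the unadjusted one, against 16.9% of the 65 at the unadjusted one. Ccn2, which encodes the matricellular protein CTGF and is induced by TGF-beta, had 16.7, 14.6, 23.7, 24.6 and 21.6 CPM across control libraries 1 to 5, against 14.9, 12.2, 11.4, 10.9 and 12.2 CPM across KO libraries 1 to 5. KO library 1 lay just above control library 2, and the log2 fold change was -0.72 (adjusted p = 0.0177, edgeR). It kept an adjusted p under 0.05 in 5 of the 10 fits that left out 1 library and reached at most 0.0567 in the others, which lacked control library 3 or 5 or KO library 2, 4 or 5. With the endothelial covariate its log2 fold change was 0.82 and did not pass (adjusted p = 0.291, edgeR). Exons of Ccn2 overlap Gm15270 on the opposite strand. Col1a1, a collagen chain gene that TGF-beta raises and fibroblasts express strongly, had 1200 to 1600 CPM in control against 898 to 1210 CPM in KO, a log2 fold change of -0.38 (adjusted p = 0.0473, edgeR). It passed in 2 of the 10 fits that left out 1 library, those without control library 2 or KO library 1, and its adjusted p in the others was 0.0557 to 0.138 (edgeR). It also missed the limit with RLE size factors (adjusted p = 0.0508, edgeR) and with the endothelial covariate, where its log2 fold change was 0.06 (adjusted p = 0.95, edgeR). Of the 10 fibroblast and preadipocyte markers, 3 passed the adjusted limit (edgeR): Pdgfra, Col3a1 and Lum, lower at log2 fold changes of -0.31, -0.47 and -0.78. The log2 fold changes of the 10 ran from -0.78 to 0.03, with a median of -0.28. The part of these markers in the fall of Col1a1 was not tested. Snai1, a transcription factor gene that TGF-beta induces, had 10.4 to 12.4 CPM in control against 7.77 to 10.6 CPM in KO, a log2 fold change of -0.31 (adjusted p = 0.0951, edgeR). These 3 fell, but the target genes of this list did not fall as a set. Of the 14 tested, 7 had negative and 7 positive log2 fold changes, with a median of -0.002. Snai1 and Pcsk5 passed with DESeq2 (adjusted p = 0.0484 and 0.0316). Pcsk5, a convertase that processes ligand precursors, had 41.6 to 45.5 CPM in control against 37.4 to 39.4 CPM in KO, without overlap, a log2 fold change of -0.17 (adjusted p = 0.0617, edgeR). Pcsk6, a convertase of the same family, had 19.1 to 21.4 CPM in control against 21.5 to 24.6 CPM in KO, also without overlap, a log2 fold change of 0.16 (adjusted p = 0.254, edgeR). Of the 65, the KO libraries lay wholly below the control libraries for 3 (2.66% of all tested genes) and wholly above for 1 (1.31%). Besides Pcsk5, those below were Lefty1 and Tgif2. Lefty1, at 4 to 22 counts per library, was at -0.84 (adjusted p = 0.151, edgeR) and Tgif2 at -0.76 (adjusted p = 0.182, edgeR).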

How the data were processed

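Paired-end reads were aligned by the authors with STAR (GRCm38.p6), assigned to Ensembl genes with featureCounts and deposited as raw counts for each library; the strand setting is not given in the sources used here. No library was pooled, and 0 columns belonged to other samples. Low genes were left out with filterByExpr at a minimum count of 10, library sizes were scaled with TMM, and edgeR 4.0.16 (R 4.3.3) compared the 5 KO with the 5 control libraries, without pairing, by its quasi-likelihood test. P-values were Benjamini-Hochberg adjusted over all 14270 tested genes, with a limit of 0.05. A standard error is the size of the log2 fold change divided by the root of F; CPM use the scaled library sizes, and log2 CPM a prior count of 2. Exact permutation tests used all 252 assignments and were 2-sided. Positions and exon lengths are from GENCODE M21 (GRCm38), and promoter sequences from RefSeq on GRCm38.p6. Adjusted p-values given for DESeq2 1.42.0 (Wald test) and limma 3.58.1 (voom) are also Benjamini-Hochberg adjusted over all genes. Other alternatives were size factors, filters, a replicate block, an endothelial covariate and left-out libraries. The scripts were tested on simulated counts. The members, marker lists and pathway lists were chosen with earlier results of these data known. For members past the adjusted or unadjusted limit of 0.05, CPM of each library or their range, log2 fold change and adjusted p are given, and less for the others. Of the members past the unadjusted limit, Tgfb1 (0.0794), Bmp6 (0.0714), Ltbp4 (0.0714) and Bmp3 (0.0635) had an exact permutation p above 0.05. The rest were below it. Of the further pathway genes the rule names those past the adjusted limit, and of the endothelial markers the 5 of smallest p. Snai1, Pcsk5, Pcsk6, Lefty1, Tgif2, Pdgfra, Col3a1, Lum, Fabp4 and Lpl, and the promoters of Tgfbr2, Id2 and Grem1, were chosen after their values were seen. One gene of the further pathway list is not reported here. Counting error is largest for members of few counts.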

Additional observations from a re-analysis of the deposited data

Results flagged for a closer look

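In each group of 5 libraries, the gap of the highest or lowest library to its neighbour was divided by the range of the group, a ratio that chance takes above 0.71 in about 1 of 20 groups. Of 116 groups, 13 were above it where chance gives 5.80; genes share libraries, so the ratios are not independent. Control library 4 was the one apart in 4 of them: Ltbp2 at 16.3 CPM against 8.81 to 10.9 CPM (ratio 0.719), Acvr1b at 26.8 against 17.8 to 19.6 CPM (ratio 0.80), Grem1 at 7.74 against 2.40 to 3.51 CPM (ratio 0.792) and Smad7 at 8.75 against 3.04 to 3.85 CPM (ratio 0.858). KO library 1 was the one apart in 6: Bmp1 at 83.2 against 70.9 to 73.8 CPM (ratio 0.769), Tgfbr2 at 356 against 319 to 329 CPM (ratio 0.717), Acvrl1 at 36.8 against 27.9 to 30.4 CPM (ratio 0.714), Grem1 at 11.7 against 6.46 to 7.95 CPM (ratio 0.714), Fstl3 at 14.1 against 9.84 to 10.5 CPM (ratio 0.835) and Bambi at 13.4 against 10.1 to 10.8 CPM (ratio 0.768). Control library 3 was high for Gdf11, at 2.49 against 1.84 to 1.95 CPM (ratio 0.828), and low for Smad5, at 53.2 against 57.4 to 58.3 CPM (ratio 0.829). The mural marker sum was low in KO library 3, at 216 against 264 to 268 CPM (ratio 0.929).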

How the results depend on the processing

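Of the members, 1 was lower and 0 higher in the edgeR fit. The lower count was 4 with DESeq2 and with limma voom, 2 without a filter on low counts, 6 without control library 4 and KO library 1, 0 with the endothelial covariate, and 1 to 3 with each library left out. The higher count was 1 with DESeq2, limma voom, no filter and without these 2 libraries, and 0 to 1 with each library left out. Of all genes, 265 were lower and 44 higher; left-out libraries gave 164 to 323 lower and 19 to 119 higher, the covariate 0 and 0, and the higher count was 125 with DESeq2, 111 with limma voom and 145 without the 2 libraries. Of the other pathway genes, 2 were lower; the count was 4 with DESeq2 and limma voom, 1 with RLE size factors, 0 with the covariate and 0 to 2 with a library left out, and 1 was higher without the 2 libraries. The labels do not say whether libraries of the same number are pairs. Deviations of same-numbered libraries correlated between -0.251 and 0.263, and 1 of 5 correlated best with its own number. So few libraries cannot decide whether they were paired. With a replicate block, Eng passed (adjusted p = 0.0115, edgeR), 0 other pathway genes were lower (Ccn2 at adjusted p = 0.0656 and Col1a1 at 0.0993) and 21 of all genes were higher. The covariate gave Fam20c a log2 fold change of -0.61 that did not pass, and reversed Tgfb1 (0.51), Bmp6 (0.63), Inhbb (0.62), Bmp1 (0.37), Ltbp1 (0.26), Ltbp4 (0.70), Tgfbr2 (0.02), Acvrl1 (0.51), Id2 (0.30), Ccn2 (0.82) and Col1a1 (0.06), none past the limit. The standard error of each of these genes rose with the covariate, for Fam20c from 0.0929 to 0.383 and for Bmp6 from 0.165 to 0.587, so these values are imprecise. As the mean of log2 CPM in place of the sum of CPM, the log2 difference of the lymphatic list was -0.401 and of the mural list -0.34, both passing, that of the adipocyte list 0.036, not passing, and those of the macrophage (-0.029) and mesothelial (0.058) lists had the other sign. With each library left out, macrophages ran from -0.058 to 0.125 and mesothelial markers from -0.211 to 0.068. Where not stated, the cause was not tested. Bmp4, Bmp5, Bmp7, Bmpr1b and Nog were too low to test.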
